A study of Mus musculus with 36 samples.

Results

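Aminoacyl-tRNA synthetases, the enzymes that load amino acids onto their tRNAs, were followed through the RNAs of 36 genes, 20 for the cytosolic enzymes and 16 with symbols ending in 2 for the mitochondrial ones. The members were picked by gene symbol out of 26400 genes in the count table, and all 36 were found. RNA was sequenced from C1.1, a single clone of mouse cells, and from C166, the parental yolk sac-derived line described as endothelial. In C1.1, CRISPR removed 1 of several hairpins of mmu-miR-466c in an intron of Sfmbt2. Both lines were kept in normoxia or for 2h or 24h in 1% oxygen and were then split into nucleus and cytoplasm, which gave 12 groups of 3 libraries of rRNA-depleted total RNA. Because C1.1 is 1 clone, a difference between the lines and a difference between this clone and others cannot be told apart.

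In the cytosol, 1 set of synthetases serves the ribosomes that read nuclear genes, and several of its members sit together in the multisynthetase complex around the scaffold proteins Aimp1, Aimp2 and Eef1e1. Mitochondria translate their own few mRNAs with a separate set, encoded in the nucleus and imported, while Kars and Gars each supply both compartments and no mitochondrial glutaminyl enzyme exists in mammals. Many cytosolic synthetase genes, and few mitochondrial ones, are known as targets of ATF4, the transcription factor that is translated when eIF2alpha is phosphorylated under amino acid shortage, endoplasmic reticulum stress or strong hypoxia.

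The libraries held 20745543 to 28667821 counts in the cytoplasm and 15314724 to 24940907 in the nucleus, and the lowest count of any member in any library was 65. Replicate 1 of C166 cytoplasm in normoxia stood apart, with 11903 genes at 1 count or more against at least 14879 in the other cytoplasmic libraries. Member values of C166 cytoplasm whose call it decides, and some others that it moved, are therefore also given without it. The defining endothelial genes Cdh5, Kdr and Tie1 had no count in any cytoplasmic library of C166, and the 9 endothelial markers present in the table summed to 4.42 to 8.58 CPM (counts scaled to a common library size) in C1.1 cytoplasm and 3.71 to 11.1 CPM in C166 cytoplasm. Markers of smooth muscle and mesenchyme summed to 596 to 1594 CPM in C1.1 and 1118 to 5541 CPM in C166, so the endothelial label is not borne out by these markers, and C166 is used below as a line name. Of 10 well-known hypoxia genes, Bnip3 and Vegfa among them, all 10 rose at 24h in each line and fraction. Whether the 3 libraries of a group come from 3 cultures is not given in the labels, and every p-value covers library-to-library spread alone, which may be technical. In bulk RNA, fewer cells making a transcript and less of it per cell cannot be told apart.

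Promoter sequence is shown first, since the members that rose and fell are set against it further on. In the RefSeq promoter table (GRCm38.p6, 250 bases before to 50 after the start site) 12 of the 20 cytosolic and 14 of the 16 mitochondrial genes had an entry. These were searched on both strands for TGATGNAA, the composite element bound by ATF4 with a C/EBP partner. A match stood in 5 of the 12 cytosolic promoters (41.7%), in 0 of the 14 mitochondrial promoters and in 1304 of all 32851 promoters of the table (3.97%). For each of the 5 genes, 30 bases around the match nearest the start site are printed along the gene's strand, with the element in capitals (TTNCATCA is its reverse complement).
Aars, chr8:111033840-111033869, plus strand, element from base 10: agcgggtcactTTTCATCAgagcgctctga
Gars, chr6:55037960-55037989, plus strand, element from base -30: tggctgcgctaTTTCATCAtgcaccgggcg
Iars, chr13:49682126-49682155, plus strand, element from base 8: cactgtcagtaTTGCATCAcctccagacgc
Tars, chr15:11399655-11399684, minus strand, element from base -15: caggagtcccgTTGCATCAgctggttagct
Yars, chr4:129189895-129189924, plus strand, element from base 4: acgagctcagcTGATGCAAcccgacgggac
A match of letters does not show binding, and the promoters of Cars, Hars, Lars, Mars, Nars, Rars, Vars, Wars, Hars2 and Pars2 were not analysed here.

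The cytosolic enzymes were far more abundant than the mitochondrial ones. Scaled to transcript length (CPM per 1000 bases of the longest principal transcript), the median cytosolic gene in normoxia stood above the median mitochondrial gene by 7.96-fold in C1.1 nucleus and 11.3-fold in C1.1 cytoplasm, and by 9.60-fold in C166 nucleus and 9.61-fold in C166 cytoplasm. In C1.1 cytoplasm the highest level per 1000 bases was that of Gars, the glycyl enzyme, at 151, and in C166 cytoplasm that of Kars, the lysyl enzyme, at 177. Qars, the glutaminyl enzyme, was the lowest cytosolic gene of the cytoplasm at 17.9 in C1.1 and 17.04 in C166. Yars2, the mitochondrial tyrosyl enzyme, was the most abundant mitochondrial member in all 4 (21.3 in C1.1 cytoplasm and 24.0 in C166 cytoplasm), and Lars2, the leucyl one, the lowest in the cytoplasm of both lines (1.97 and 1.498).

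Summed over the 20 cytosolic genes, the C1.1 cytoplasm held 3294 ± 34.1 CPM in normoxia, 3293 ± 126 at 2h and 3281 ± 244 at 24h (SD, n = 3 each), and C166 cytoplasm 3481 ± 288, 3687 ± 128 and 3835 ± 151. The 16 mitochondrial genes summed to 303 ± 9.09, 281 ± 6.03 and 269 ± 1.63 CPM in C1.1 cytoplasm and to 346 ± 5.85, 329 ± 15.7 and 303 ± 7.87 CPM in C166 cytoplasm. In the nucleus the cytosolic sum was 4354 ± 66.4, 4129 ± 31.99 and 4198 ± 309 CPM in C1.1 and 4669.6 ± 153, 4704 ± 69.3 and 5177 ± 63.5 CPM in C166. At 24h every library of both lines and both fractions therefore lay below every normoxic library in the mitochondrial sum, while the cytosolic sums overlapped between 24h and normoxia except in C166 nucleus, where they were higher at 24h. The nuclear mitochondrial sum was 526 ± 22.9, 507 ± 14.4 and 453 ± 14.1 CPM in C1.1, against 543 ± 3.74, 531 ± 11.2 and 487 ± 29.1 CPM in C166. These sums were not tested.

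**Figure D1:**
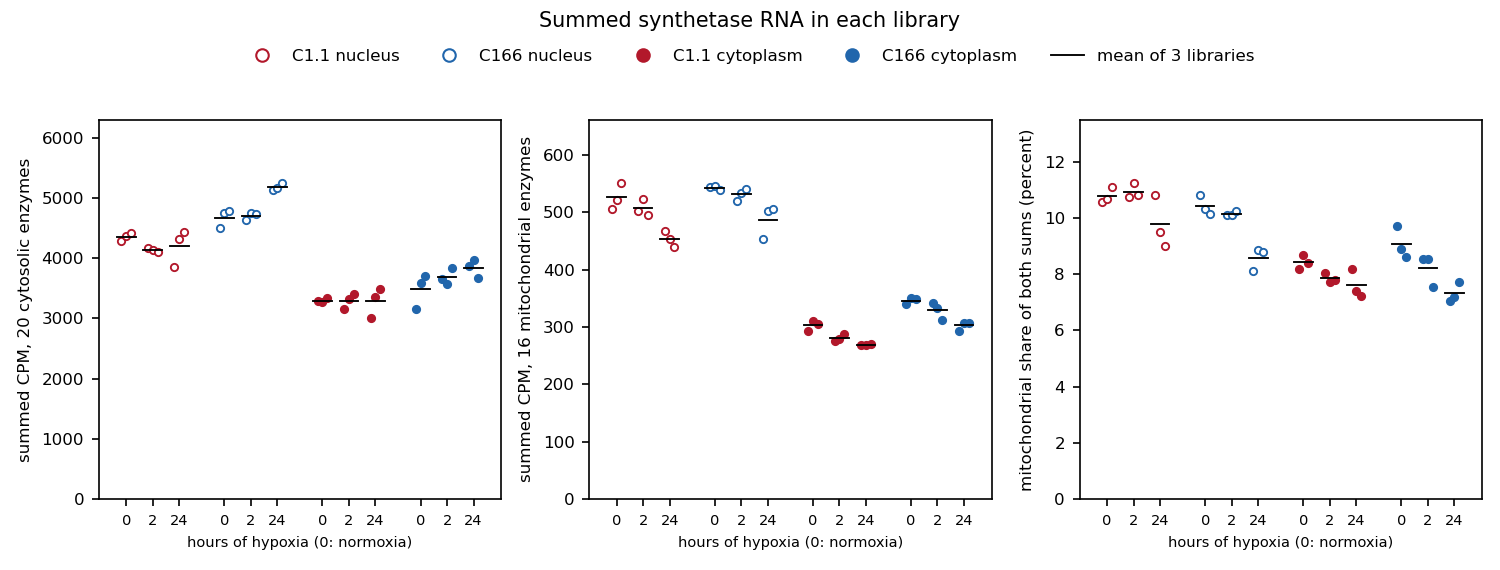
Summed CPM of the 20 cytosolic and the 16 mitochondrial synthetase genes, and the mitochondrial share of both sums in percent, in each library (points) with the group mean (lines) at 0, 2 and 24 hours of hypoxia. The mitochondrial share averaged 10.4% in normoxia and 8.59% at 24h in C166 nucleus, and 9.07% and 7.32% in C166 cytoplasm. In C1.1 it averaged 10.8% and 9.77% in the nucleus and 8.42% and 7.61% in the cytoplasm. The nuclear libraries of C1.1 overlapped, reaching 10.81% at 24h against 10.57% to 11.1% in normoxia. Those of its cytoplasm were barely apart, at up to 8.18% against at least 8.19%.

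After 2h of hypoxia no member passed the test in any line or fraction. A member was called where edgeR's quasi-likelihood test gave a Benjamini-Hochberg adjusted p under 0.05 over all genes of the fit, and log2 fold changes are given with ± their standard error. Among all genes, the shares higher and lower at 2h were 1.09% and 0.86% in C1.1 cytoplasm, 0.913% and 0.427% in C166 cytoplasm, 2.08% and 1.21% in C1.1 nucleus and 1.37% and 0.928% in C166 nucleus. Unadjusted p values under 0.05 were found for 2 cytosolic and 3 mitochondrial members in C1.1 cytoplasm, 2 and 0 in C166 cytoplasm, 3 and 0 in C1.1 nucleus and 1 and 1 in C166 nucleus, and DESeq2 called 1 cytosolic member, lower in C1.1 nucleus. The shares of all genes above are edgeR's at the adjusted threshold and are no measure for these counts. Fitted log2 fold changes of the cytosolic members at 2h had a median of -0.0031 in C1.1 cytoplasm and 0.09 in C166 cytoplasm, beside -0.0024 and 0.06 over all genes. Those of the mitochondrial members had medians of -0.07 and -0.06. Without the C166 library that stood apart, the medians in C166 cytoplasm were 0.03 for the cytosolic and -0.10 for the mitochondrial members. Sars, the seryl enzyme, shows how small the early values were, at 253, 243 and 247 CPM at 2h in C166 cytoplasm against 189, 223 and 226 CPM in normoxia, a log2 fold change of 0.22 ± 0.09 with an adjusted p of 0.266 (0.14 and 0.72 without that library).

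At 24h the synthetases split into members that rose and members that fell, and the split was not by compartment alone. In C1.1 cytoplasm 6 of the 20 cytosolic members rose and 7 fell, and in C166 cytoplasm 9 rose and 6 fell. Of the 16 mitochondrial members 1 rose and 4 fell in C1.1 cytoplasm, and 0 rose and 3 fell in C166 cytoplasm. Over all 14998 genes tested, 18% rose and 18.1% fell in C1.1 cytoplasm and 18.2% rose and 17.5% fell in C166 cytoplasm, to be read beside 13 and 15 called of 20 cytosolic members and 5 and 3 of 16 mitochondrial ones. In C1.1 nucleus 4 cytosolic members rose and 9 fell, with 0 and 6 of the mitochondrial ones, beside 22.3% and 20.5% of all 15735 genes. In C166 nucleus 7 cytosolic members rose and 6 fell, with 1 and 3 of the mitochondrial ones, beside 19.2% and 18.4% of all genes.

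The medians of the log2 fold changes stayed near 0, with members on both sides of it. For the cytosolic members they were -0.07 in C1.1 cytoplasm, 0.13 in C166 cytoplasm, -0.11 in C1.1 nucleus and 0.12 in C166 nucleus. The mitochondrial medians were -0.18, -0.08, -0.25 and -0.11 in the same order, below the medians of all genes (0.03, 0.08, 0 and 0.0034) in each. Without the C166 library that stood apart, the medians in C166 cytoplasm were 0.08 and -0.15, with 8 cytosolic members higher and 6 lower and 0 and 2 of the mitochondrial ones. Over these 4 comparisons 19 of the 20 cytosolic and 9 of the 16 mitochondrial members were called at least once. Sars alone was higher in all 4, and Farsa, Farsb, Hars, Kars, Rars, Mars2 and Yars2 were lower in all 4.

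**Figure D2:**
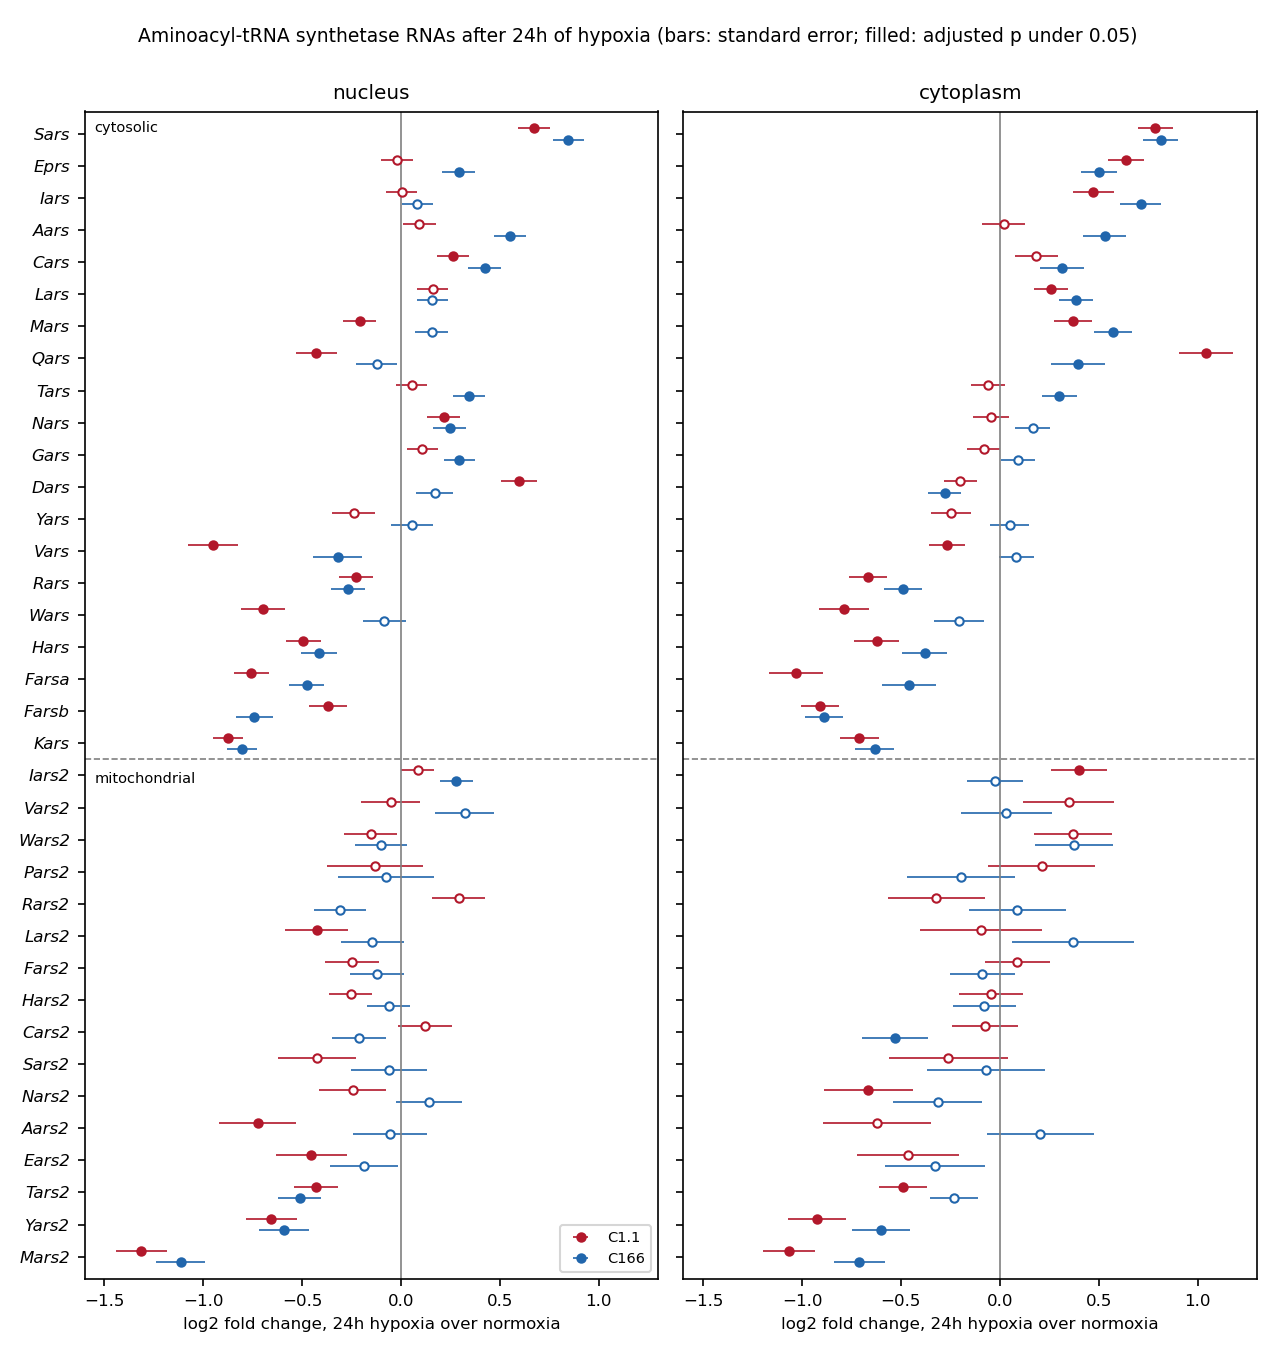
Log2 fold change of each synthetase RNA at 24h of hypoxia over normoxia, with its standard error, in the nucleus (left) and cytoplasm (right) of C1.1 (red) and C166 (blue). Filled points passed an adjusted p of 0.05. Sars lies between 0.67 and 0.85, and Kars, Farsb, Mars2 and Yars2 lie below 0 in every case.

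Sars rose in both lines and fractions. In C1.1 cytoplasm it stood at 239, 305 and 281 CPM at 24h against 152, 169 and 157 CPM in normoxia, and in C166 cytoplasm at 384, 379.6 and 359.6 against 189, 223 and 226 CPM. Every hypoxic library lay above every normoxic one in both lines. In C1.1 nucleus the values were 202, 231 and 226 CPM at 24h against 139, 137 and 137 CPM in normoxia, and in C166 nucleus 329, 329 and 364 against 177, 189.6 and 203 CPM. The nuclear groups did not overlap either. The log2 fold changes were 0.79 ± 0.09 in C1.1 cytoplasm (adjusted p = 7.49e-07), 0.81 ± 0.09 in C166 cytoplasm (adjusted p = 6.21e-07), 0.67 ± 0.08 in C1.1 nucleus (adjusted p = 1.37e-07) and 0.85 ± 0.08 in C166 nucleus (adjusted p = 3.38e-09).

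Another 5 cytosolic enzymes rose in the cytoplasm of both lines. Eprs, the fused glutamyl and prolyl enzyme, rose by 0.64 on the log2 scale in C1.1 cytoplasm and 0.50 in C166 cytoplasm. Iars, the isoleucyl enzyme, rose by 0.47 and 0.71, Mars, the methionyl enzyme, by 0.37 and 0.57, and Lars, the leucyl enzyme, by 0.26 and 0.38. Qars, the glutaminyl enzyme, rose by 1.04 in C1.1 and 0.40 in C166. These 5 are subunits of the multisynthetase complex, as are Kars, Rars and Dars, of which Kars and Rars were called lower in the cytoplasm of both lines and Dars in that of C166. The call of Lars in C1.1 was lost with no filter on low counts (adjusted p up to 0.122 over its alternatives), and that of Qars in C166 when only the libraries compared were fitted (up to 0.235). The exons of Mars overlap those of Ddit3 on the opposite strand over 68 bases (2.0% of its exons), and Ddit3 rose by 1.78 in C1.1 and 1.06 in C166 cytoplasm, whose part in the value of Mars was not tested.

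A further 3 members rose in C166 cytoplasm without a call in C1.1 cytoplasm. Aars, the alanyl enzyme, stood at 393, 459.7 and 362 CPM at 24h against 243, 279.5 and 319 CPM in normoxia in C166, groups that were apart, with a log2 fold change of 0.53 ± 0.11 and an adjusted p of 0.000696. In C1.1 cytoplasm it was at 160.2, 186 and 199.99 CPM against 169, 186 and 184 CPM with overlap between the groups, and a log2 value of 0.02. Cars, the cysteinyl enzyme, and Tars, the threonyl one, rose by 0.32 and 0.30 in C166 cytoplasm and had 0.18 and -0.06 in C1.1 cytoplasm. Without replicate 1 of the normoxic C166 cytoplasm, Cars was no longer called (0.19, adjusted p = 0.17). In the nucleus, Aars, Cars, Tars, Eprs, Gars and Nars, the asparaginyl enzyme, rose in C166 by 0.55, 0.42, 0.34, 0.29, 0.30 and 0.25. Of these, Cars (0.26) and Nars (0.22) were also called in C1.1 nucleus, where Dars, the aspartyl enzyme, rose by 0.60. Among the 5 genes with the printed promoter element, those called higher were Aars, Iars and Tars in C166 cytoplasm, Iars in C1.1 cytoplasm, Aars, Gars and Tars in C166 nucleus and 0 in C1.1 nucleus. Among the 7 cytosolic genes whose promoter held no match, 3 were called higher in the cytoplasm of each line (Eprs, Qars and Sars) and 2 in each nucleus. Of the 5 genes with the element, 0 were called lower in any of the 4 comparisons. Of the 7 without it, Farsa, Farsb and Kars were called lower in all 4, Dars also in C166 cytoplasm and Qars also in C1.1 nucleus. A link between the element and these calls was not tested. Gars and Yars, the tyrosyl enzyme, had 0.09 and 0.05 in C166 cytoplasm (0.07 and -0.02 without replicate 1 of normoxia), and Yars was the only cytosolic member not called in any of the 4 comparisons. Exons of Aars overlap Exosc6 on the same strand and Gm24103 on the opposite strand, over 15.1% of their length together, so its counts are uncertain.

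Kars, whose enzyme serves both cytosol and mitochondria, fell in both lines and fractions. In C1.1 cytoplasm it stood at 131, 145 and 154 CPM at 24h against 229, 236 and 237 CPM in normoxia, and in C166 cytoplasm at 229, 227 and 231 against 285, 393 and 387 CPM. In C1.1 nucleus it was at 105, 109 and 102 CPM against 185, 198 and 197 CPM, and in C166 nucleus at 167, 189.6 and 198 against 311, 334 and 323 CPM. No hypoxic library reached its normoxic group in any of these. The log2 fold changes were -0.71 ± 0.10, -0.63 ± 0.10, -0.87 ± 0.08 and -0.80 ± 0.08 in that order, with adjusted p values of 8.77e-06, 4.21e-05, 8.77e-10 and 3.9e-09. The low normoxic value in C166 cytoplasm was that of replicate 1, and without it the log2 fold change there was -0.77 (adjusted p = 1.43e-07).

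Farsa and Farsb encode the alpha and beta subunits of 1 enzyme, the phenylalanyl-tRNA synthetase, and both fell everywhere. Farsa was at 97.99, 85.6 and 93.6 CPM at 24h against 172, 213 and 182 CPM in normoxia in C1.1 cytoplasm, and at 134, 130.4 and 119 against 211, 209 and 229 CPM in C1.1 nucleus. In C166 it was at 52.1, 67.7 and 57.9 CPM against 61.6, 80.6 and 102 CPM in the cytoplasm, where 1 hypoxic library lay above the lowest normoxic one, and at 65.3, 79.95 and 81.8 against 103, 109 and 104 CPM in the nucleus, where none did. Its log2 fold changes were -1.03 and -0.76 in C1.1 cytoplasm and nucleus and -0.46 and -0.48 in those of C166. Farsb was at 51.2, 46.1 and 50.4 CPM at 24h against 101, 88.2 and 88.8 CPM in C1.1 cytoplasm and at 73.4, 81.1 and 75.2 against 121, 156 and 149 CPM in C166 cytoplasm. In the nuclei it was at 57.5, 66.5 and 72.6 against 82.4, 89.1 and 82.5 CPM in C1.1 and at 75.4, 77.9 and 69.004 against 119, 125 and 127 CPM in C166. The groups of Farsb did not overlap in any line or fraction, and its log2 fold changes were -0.91 ± 0.10, -0.89 ± 0.10, -0.37 ± 0.09 and -0.74 ± 0.09. The adjusted p values of Farsa ran from 8.49e-08 in C1.1 nucleus to 0.013 in C166 cytoplasm, where the call was lost when only the libraries compared were fitted (largest adjusted p over its alternatives 0.118). The lowest normoxic value of Farsa in C166 cytoplasm was that of replicate 1, and without it the log2 fold change there was -0.63 (adjusted p = 0.000213).

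Hars, the histidyl enzyme, and Rars, the arginyl one, fell in both lines and fractions as well. Hars fell by 0.62 in C1.1 cytoplasm and 0.38 in C166 cytoplasm, and by 0.49 and 0.41 in their nuclei. Rars fell by 0.67 and 0.49 in the cytoplasm and by 0.23 and 0.27 in the nucleus. Wars, the tryptophanyl enzyme, and Vars, the valyl one, fell in both fractions of C1.1, Wars by 0.79 and Vars by 0.27 in the cytoplasm and by 0.70 and 0.95 in the nucleus. Vars was also called lower in C166 nucleus (-0.32), and Wars had -0.21 and -0.09 in C166 cytoplasm and nucleus. Without replicate 1 of the normoxic group Wars was called lower in C166 cytoplasm too (-0.35, adjusted p = 0.0189). Dars was lower in C166 cytoplasm (-0.28) and higher in C1.1 nucleus, and its call in C166 cytoplasm was lost without replicate 1 of the normoxic group (-0.22, adjusted p = 0.0613). In C1.1, Qars and Mars carried calls in opposite directions, higher in the cytoplasm and lower in the nucleus (-0.43 and -0.21), though the nuclear call of Mars was lost under RLE scaling (largest adjusted p over its alternatives 0.233).

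**Figure D3:**
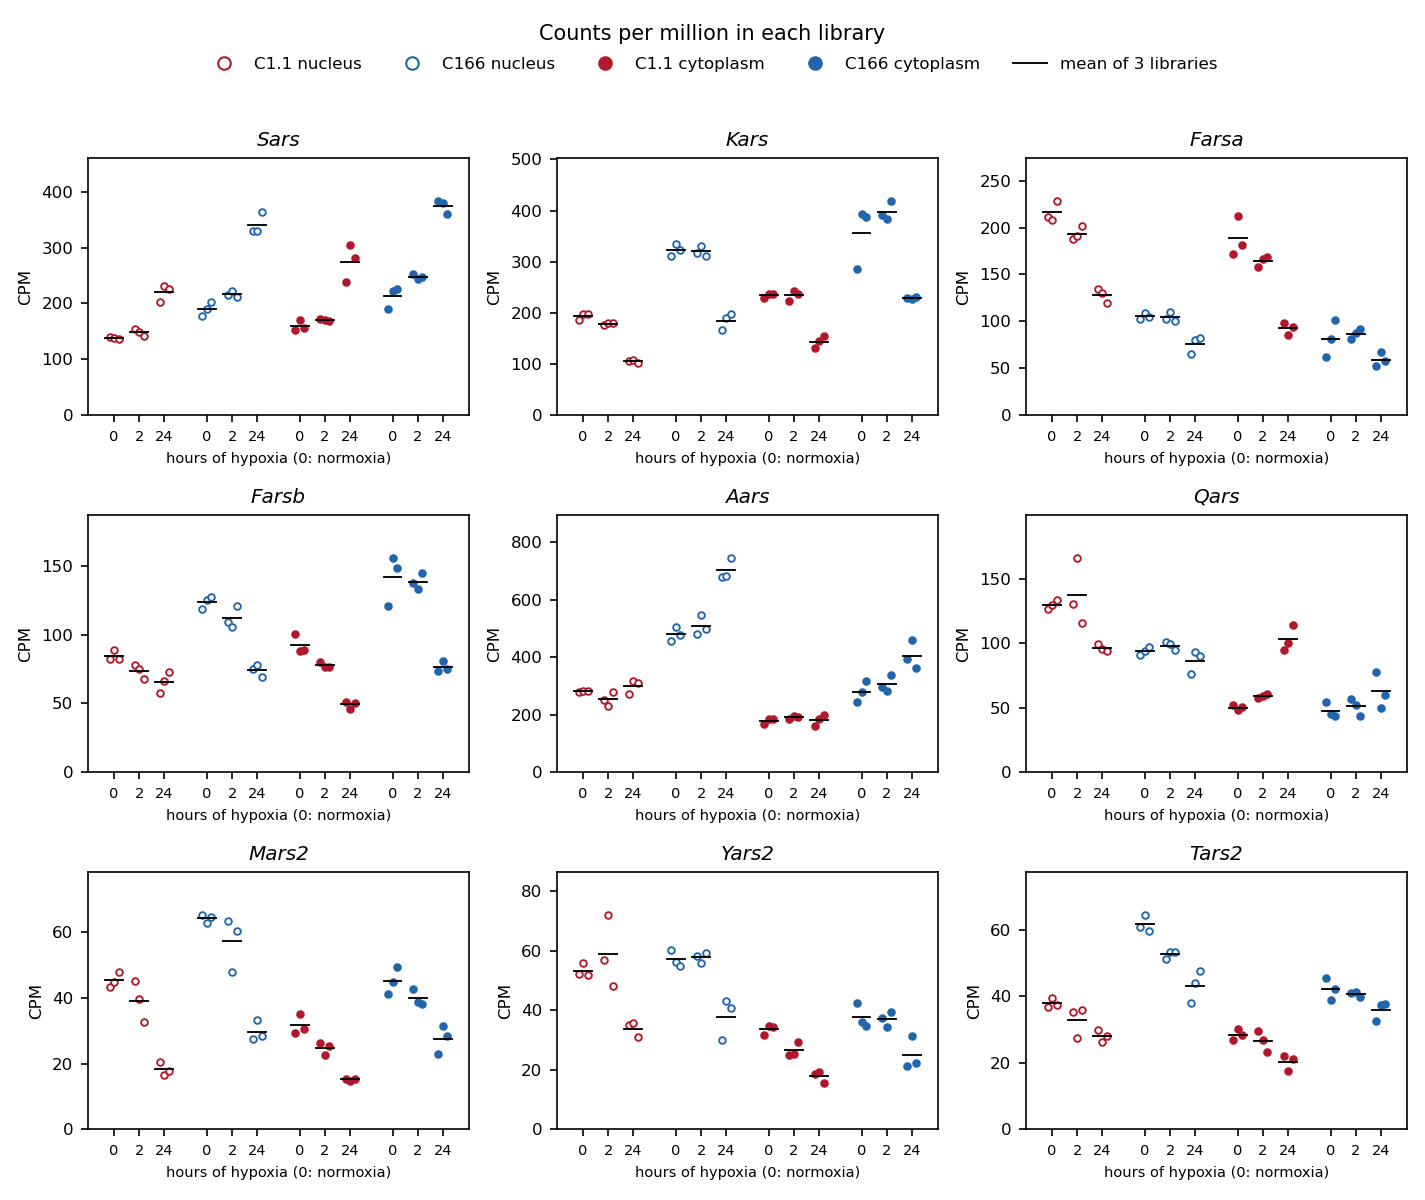
CPM of 9 synthetase RNAs in each library, with the group mean as a line, in C1.1 (red) and C166 (blue), nucleus (open) and cytoplasm (filled), at 0, 2 and 24 hours of hypoxia. CPM is scaled within each fraction. At 24h Sars lies above its normoxic libraries in all 4, Kars, Farsb, Mars2, Yars2 and Tars2 below theirs, and Aars above in C166 and among them in C1.1. Qars at 24h is higher in the cytoplasm of C1.1 and lower in its nucleus.

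The mitochondrial members called at 24h were called lower, with Iars2 as the exception, and 7 of the 16 were called in no comparison. In C166 the 3 called lower in each fraction stood beside 17.5% of all genes lower in the cytoplasm and 18.4% in the nucleus. Mars2, the mitochondrial methionyl enzyme, was at 15.4, 14.8 and 15.3 CPM at 24h against 29.4, 35.2 and 30.4 CPM in normoxia in C1.1 cytoplasm, and at 22.8, 31.5 and 28.4 against 41.1, 44.9 and 49.5 CPM in C166 cytoplasm. In the nucleus it was at 20.6, 16.6 and 17.7 against 43.3, 44.98 and 48.04 CPM in C1.1 and at 27.6, 33.1 and 28.3 against 65.4, 62.8 and 64.7 CPM in C166. The groups were apart in every case, and the nuclear fall was 2.48-fold in C1.1 and 2.16-fold in C166. Its log2 fold changes were -1.07 ± 0.13, -0.71 ± 0.13, -1.31 ± 0.13 and -1.11 ± 0.12, with adjusted p values of 2.14e-06, 0.000219, 5.88e-09 and 7.5e-08.

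Yars2 followed the same course, at 18.7, 19.1 and 15.4 CPM at 24h against 31.6, 34.7 and 34.5 CPM in C1.1 cytoplasm and 21.2, 31.3 and 22.3 against 42.6, 36.1 and 34.7 CPM in C166 cytoplasm. In the nuclei it was at 34.97, 35.7 and 30.9 against 52.3, 55.8 and 51.98 CPM in C1.1 and 29.97, 42.99 and 40.7 against 60.4, 56.2 and 54.8 CPM in C166. Again no groups overlapped, with log2 fold changes of -0.92 ± 0.15, -0.60 ± 0.15, -0.66 ± 0.13 and -0.59 ± 0.13 and adjusted p values of 4.49e-05, 0.00295, 0.000176 and 0.000624. Fitting only the libraries compared, the call in C166 cytoplasm was lost (adjusted p = 0.051). Tars2, the mitochondrial threonyl enzyme, was called lower in 3 of the 4 comparisons. It stood at 21.96, 17.6 and 21.1 CPM at 24h against 26.7, 30.1 and 28.3 CPM in C1.1 cytoplasm, at 29.9, 26.2 and 28.1 against 36.7, 39.4 and 37.3 CPM in C1.1 nucleus and at 38.1, 44.03 and 47.5 against 60.7, 64.5 and 59.7 CPM in C166 nucleus. These were log2 fold changes of -0.49, -0.43 and -0.51, while C166 cytoplasm, at 32.7, 37.2 and 37.7 against 45.4, 38.7 and 42.1 CPM, gave -0.23 ± 0.12 and an adjusted p of 0.148 although the groups did not overlap.

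A further 5 mitochondrial members were each lower in 1 comparison: Nars2, the asparaginyl enzyme, in C1.1 cytoplasm (-0.66), Cars2, the cysteinyl one, in C166 cytoplasm (-0.53), and Aars2, Ears2 and Lars2, the alanyl, glutamyl and leucyl ones, in C1.1 nucleus (-0.72, -0.45 and -0.43). Cars2 lost its call without replicate 1 of the normoxic C166 cytoplasm (-0.32, adjusted p = 0.0981), and Ears2 under RLE factors and DESeq2 among others (largest adjusted p 0.233). Iars2, the isoleucyl enzyme, was higher in C1.1 cytoplasm (0.40) and in C166 nucleus (0.28). The exons of Iars2 overlap other genes on the opposite strand over 24.2% of their length. Fars2, Hars2, Pars2, Rars2, Sars2, Vars2 and Wars2, for phenylalanine, histidine, proline, arginine, serine, valine and tryptophan, were not called at 24h in any comparison, with log2 values between -0.43 (Sars2, C1.1 nucleus) and 0.37 (Wars2, C166 cytoplasm). Several of these have few counts and wide errors: Sars2 in C166 cytoplasm had a standard error of 0.30 and Pars2 one of 0.27.

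Some of the 24h calls rested on few libraries, while no called value changed direction with any library left out (values are log2 fold changes). In C1.1 cytoplasm Lars lost its call without each of 4 of the 6 libraries in turn, Iars2 without each of 5 and Nars2 without each of 3. Vars lost its call there without replicate 2 of normoxia (-0.21, adjusted p = 0.115) and without replicate 2 of 24h (-0.23, adjusted p = 0.0974). In C166 cytoplasm Cars lost its call without each of 3 of the 6 libraries in turn, Hars without each of 3 and Qars without each of 3. Dars lost its call there without replicate 1 of normoxia (-0.22, adjusted p = 0.0613) and without replicate 3 of 24h (-0.26, adjusted p = 0.0511). Farsa lost its call there without replicate 3 of normoxia (-0.27, adjusted p = 0.112) and without replicate 1 of 24h (-0.38, adjusted p = 0.0672). Tars lost its call there without replicate 2 of 24h (0.21, adjusted p = 0.106). Cars2 lost its call there without replicate 1 of normoxia (-0.32, adjusted p = 0.0981) and without replicate 2 of 24h (-0.44, adjusted p = 0.0688). In C1.1 nucleus Mars lost its call without each of 4 of the 6 libraries in turn, Nars without each of 4, Ears2 without each of 4 and Lars2 without each of 4. Cars lost its call there without replicate 2 of 24h (0.21, adjusted p = 0.0872). Rars lost its call there without replicate 2 of normoxia (-0.18, adjusted p = 0.152) and without replicate 1 of 24h (-0.14, adjusted p = 0.194). In C166 nucleus Vars lost its call without each of 4 of the 6 libraries in turn. Eprs lost its call there without replicate 1 of normoxia (0.23, adjusted p = 0.0635). Nars lost its call there without replicate 1 of normoxia (0.18, adjusted p = 0.163) and without replicate 3 of 24h (0.22, adjusted p = 0.0801). Rars lost its call there without replicate 3 of normoxia (-0.24, adjusted p = 0.0564). Iars2 lost its call there without replicate 1 of normoxia (0.24, adjusted p = 0.0651).

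Set side by side by amino acid, the cytosolic and the mitochondrial enzyme were seldom both called. Of 17 pairs (Eprs was paired with both Ears2 and Pars2, and Farsa and Farsb each with Fars2), the mitochondrial log2 fold change was the lower of the pair in 11 in C1.1 cytoplasm, 12 in C166 cytoplasm, 10 in C1.1 nucleus and 12 in C166 nucleus. Both enzymes of a pair were called in the same direction in 1, 0, 1 and 0 pairs in that order, and in opposite directions in 1, 2, 0 and 1. Only 1 enzyme of the pair was called in 13, 12, 14 and 14 pairs. A missing call does not show an unchanged enzyme. The median standard error was 0.21 for the mitochondrial and 0.10 for the cytosolic members in the cytoplasm of each line. The methionyl pair was the widest of those called on both sides, with Mars at 0.37 and Mars2 at -1.07 in C1.1 cytoplasm and Mars at 0.57 and Mars2 at -0.71 in C166 cytoplasm. In the serine pair Sars was called, and Sars2 had -0.26 in C1.1 cytoplasm and -0.07 in C166 cytoplasm without a call. For isoleucine both enzymes rose in C1.1 cytoplasm (Iars 0.47, Iars2 0.40), and for tyrosine Yars was not called while Yars2 fell. In C1.1 cytoplasm the remaining pairs, cytosolic first, were 0.02 and -0.62 for alanine, 0.18 and -0.08 for cysteine, -0.62 and -0.05 for histidine, 0.26 and -0.10 for leucine, -0.04 and -0.66 for asparagine, -0.67 and -0.32 for arginine, -0.06 and -0.49 for threonine, -0.27 and 0.35 for valine and -0.79 and 0.37 for tryptophan. Dars, Gars, Kars and Qars have no partner among the members. In C166 cytoplasm the same pairs were 0.53 and 0.20 for alanine, 0.32 and -0.53 for cysteine, -0.38 and -0.08 for histidine, 0.38 and 0.37 for leucine, 0.17 and -0.31 for asparagine, -0.49 and 0.09 for arginine, 0.30 and -0.23 for threonine, 0.08 and 0.03 for valine and -0.21 and 0.37 for tryptophan. Fars2 had 0.09 in C1.1 and -0.09 in C166 cytoplasm beside the falls of Farsa and Farsb, and Ears2 and Pars2 had -0.46 and 0.21 in C1.1 and -0.33 and -0.19 in C166 beside the rise of Eprs. Several values in C166 cytoplasm moved without the normoxic library that stood apart, to -0.24 for Rars2, 0.41 for Vars2, 0.16 for Wars2, 0.08 for Lars2, -0.37 for Sars2, -0.32 for Cars2, 0.01 for Pars2, 0.08 for Nars and -0.35 for Wars. The mitochondrial value was then the lower in 11 of the 17 pairs, and both enzymes were called in the same direction in 0 and in opposite directions in 1. The pairs are a description, as the difference within a pair was not tested.

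Whether the deletion line answered 24h of hypoxia differently was tested as the difference of both responses. In the cytoplasm no member passed (0 of 36), beside 1.39% higher and 0.94% lower among all genes. At an unadjusted p under 0.05, 7 cytosolic and 2 mitochondrial members stood there, and DESeq2 called 1 cytosolic member higher and 3 lower. Those counts cannot be set against the shares above, which are edgeR's at the adjusted threshold. In the nucleus 3 cytosolic members passed with a lower response in C1.1 and 0 mitochondrial ones did, beside 2.89% higher and 1.87% lower among all genes. The median difference was -0.18 for the cytosolic and -0.19 for the mitochondrial members in the nucleus and -0.01 for all genes.

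Aars was at 273, 316 and 309.95 CPM at 24h against 278, 281 and 284 CPM in normoxia in C1.1 nucleus, and at 679, 683 and 746 against 456, 506 and 476 CPM in C166 nucleus. It was thus apart between conditions in C166 and overlapped in C1.1, and the difference of responses was -0.46 ± 0.12 with an adjusted p of 0.0205. Vars was at 130.2, 120.3 and 104 CPM against 222, 215 and 249 CPM in C1.1 nucleus and at 132, 198 and 202 against 219.6, 233 and 213 CPM in C166 nucleus, a difference of -0.63 ± 0.18 (adjusted p = 0.0377). Wars was at 25.1, 26.1 and 26.1 CPM against 46.5, 43.3 and 35.8 CPM in C1.1 nucleus and at 54.5, 45.98 and 58.6 against 59.2, 56.6 and 52.9 CPM in C166 nucleus, a difference of -0.61 ± 0.16 (adjusted p = 0.0219). Vars fell in both lines and by more in C1.1, Wars fell in C1.1 and overlapped in C166, and Aars rose in C166 and overlapped in C1.1. These calls were thin: leaving out 1 of the 12 libraries concerned ended that of Aars in 5 cases, of Wars in 6 and of Vars in 10, with adjusted p values up to 0.0847, 0.0851 and 0.124, and no size changed sign. Of the 10 hypoxia genes, Bnip3 (-0.73), Vegfa (-0.76) and Slc2a1 (-0.85), picked after their values were seen, also had lower nuclear responses in C1.1. The others of that list are not given for this difference, and over all genes 1.87% were called lower in it. The part of the hypoxia genes in the values of Aars, Vars and Wars was not tested.

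In normoxia C1.1 and C166 already differed in some of these RNAs, as they did in a large share of all genes. In the cytoplasm 3 cytosolic members were higher and 5 lower in C1.1, with 0 and 2 of the mitochondrial ones, beside 18.2% higher and 17.3% lower of all genes. In the nucleus 4 cytosolic members were higher and 7 lower, with 3 and 5 of the mitochondrial ones, beside 18.8% and 21.2% of all genes. Median log2 differences were -0.03 and -0.15 for the cytosolic and -0.10 and -0.14 for the mitochondrial members in cytoplasm and nucleus, and 0.06 and 0.02 for all genes. With upper-quartile factors the median of all genes in the nucleus moved by 0.10. Without the C166 library that stood apart, 2 cytosolic members were higher and 6 lower in the cytoplasm, with 0 and 4 of the mitochondrial ones, and the medians there were -0.11 and -0.06. Rars (-0.21 with it and -0.32 without it, adjusted p = 0.00919) and Ears2 (-0.65 and -0.62, adjusted p = 0.0505 and 0.0496) were then called lower, as was Rars2, and Gars lost its call (0.21, adjusted p = 0.0903).

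Farsa showed the largest difference, and its partner subunit went the other way. Farsa stood at 172, 213 and 182 CPM in C1.1 against 61.6, 80.6 and 102 CPM in C166 in normoxic cytoplasm, and at 211, 209 and 229 against 103, 109 and 104 CPM in the nucleus. All C1.1 libraries lay above all C166 libraries, with log2 differences of 1.21 ± 0.14 and 1.04 ± 0.09 and adjusted p values of 9.91e-07 and 4.15e-10. Without the C166 library that stood apart, the difference of Farsa in the cytoplasm was 1.05 (adjusted p = 4.06e-07). Farsb was lower in C1.1 by 0.62 in the cytoplasm and 0.55 in the nucleus.

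Kars was at 229, 236 and 237 CPM in C1.1 against 285, 393 and 387 CPM in C166 in normoxic cytoplasm and at 185, 198 and 197 against 311, 334 and 323 CPM in the nucleus, lower in every C1.1 library. Its log2 differences were -0.60 ± 0.10 (adjusted p = 7.38e-05) and -0.74 ± 0.08 (adjusted p = 1.45e-08), and without the C166 library that stood apart the value in the cytoplasm was -0.73. Aars, Sars and Dars were also lower in C1.1 in both fractions, Aars by 0.64 and 0.77, Sars by 0.42 and 0.46 and Dars by 0.30 and 0.31 in cytoplasm and nucleus. Iars was called higher in C1.1 in the cytoplasm (0.46, nucleus -0.13) and Qars and Cars were called higher in the nucleus (0.46 and 0.34), with values of 0.07 and 0.09 in the cytoplasm. Gars was higher by 0.23 and 0.21, a call that leaving out any 1 of the 6 cytoplasmic libraries ended. Tars and Wars were called lower in the nucleus (-0.21 and -0.43). Under upper-quartile factors Tars and Dars lost their nuclear calls, as did Tars with no filter on low counts (largest adjusted p over the alternatives 0.29 and 0.0652). Vars2 lost its nuclear call without replicate 1 of C166 (0.41, adjusted p = 0.073) and without replicate 3 of C1.1 (0.39, adjusted p = 0.087). Wars2 lost its nuclear call without replicate 2 of C1.1 (-0.39, adjusted p = 0.0548). In the same fraction Gars lost its call without each of 4 of the 6 libraries in turn and Tars without each of 5.

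Among the mitochondrial members, Tars2 was at 36.7, 39.4 and 37.3 CPM in C1.1 against 60.7, 64.5 and 59.7 CPM in C166 in normoxic nucleus and at 26.7, 30.1 and 28.3 against 45.4, 38.7 and 42.1 CPM in the cytoplasm. The lines were apart in both fractions, with log2 differences of -0.71 ± 0.11 (adjusted p = 8.07e-06) and -0.57 ± 0.12 (adjusted p = 0.00112). Rars2, the arginyl enzyme, was at 21.8, 28.7 and 24.2 CPM in C1.1 against 34.5, 38.7 and 39.3 CPM in C166 in the nucleus, a log2 difference of -0.59 ± 0.13 (adjusted p = 0.000827). In the cytoplasm Rars2 was at 31.5, 23.7 and 23.9 against 13.8, 38.7 and 31.7 CPM, where the lowest of the 6 values is that of the C166 library that stood apart, and the log2 difference was -0.09 with it and -0.42 without it (adjusted p = 0.804 and 0.0474). Mars2 was lower in C1.1 in both fractions (-0.51 and -0.50). Ears2 and Wars2 were called lower in the nucleus (-0.77 and -0.43), and Hars2, Iars2 and Vars2 higher there (0.44, 0.35 and 0.46), while their cytoplasmic values of -0.08, 0.02 and -0.08 were not called, with -0.03 for Iars2 and 0.30 for Vars2 without the library that stood apart. Upper-quartile factors ended the nuclear call of Wars2 (largest adjusted p over all its alternatives 0.0548). Exons of Hars and Hars2 overlap each other on opposite strands.

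**Figure D4:**
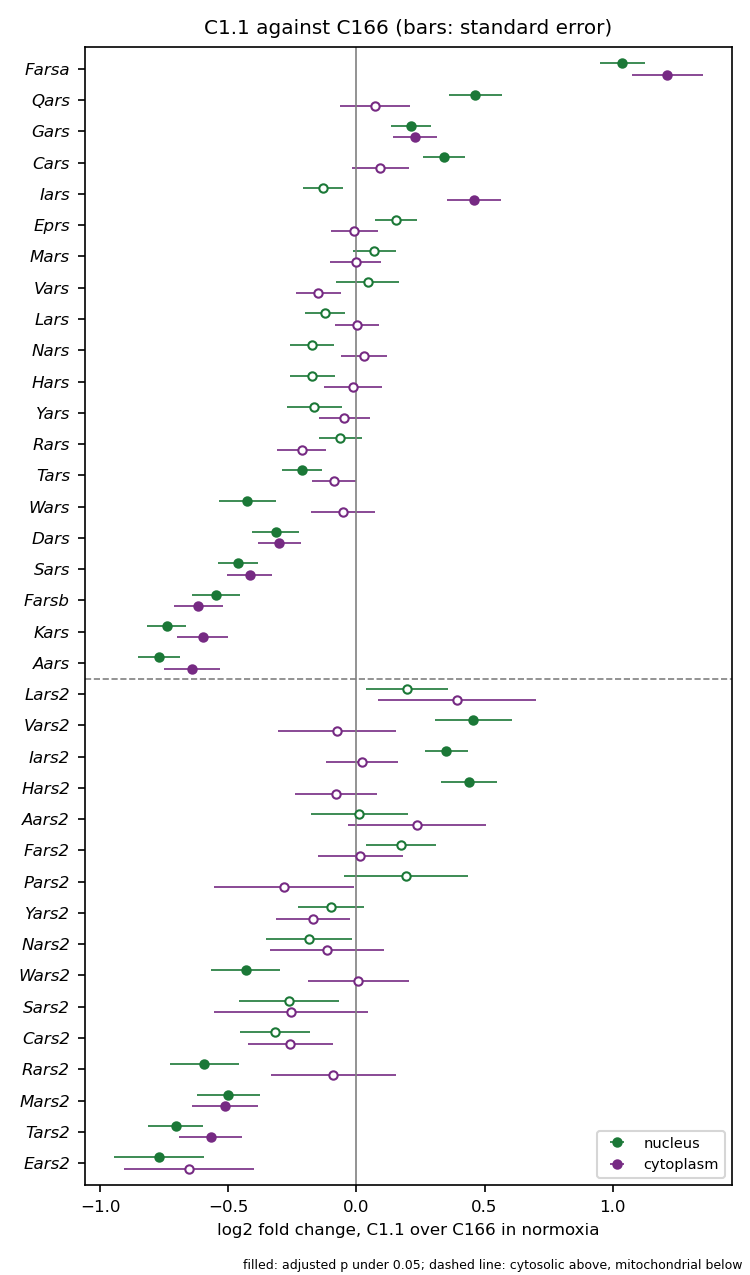
Log2 fold change of each synthetase RNA in C1.1 over C166 in normoxia, with its standard error, in the nucleus (green) and cytoplasm (purple), cytosolic members above the dashed line and mitochondrial ones below. Filled points passed an adjusted p of 0.05. Farsa stands far above the other members at 1.04 and 1.21, and Aars, Kars and Farsb lie lowest among the cytosolic ones.

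The distribution of these RNAs between nucleus and cytoplasm was read from the ratio of their CPM, so it is relative to the average transcript of each fraction and not a share of molecules. As a check of the fractions, Malat1, a nuclear noncoding RNA, had a median of 12018 CPM in the nuclear and 2664 CPM in the cytoplasmic libraries of C1.1, and 16821 and 4976 CPM in those of C166. In normoxia 8 cytosolic members were higher in the nucleus and 8 lower in C1.1, with 8 and 1 of the mitochondrial ones, beside 28.6% and 29% of all 16682 genes. In C166 these were 9 and 5 cytosolic and 8 and 1 mitochondrial members, beside 31.8% and 26.2% of all genes. The scaling decides part of this, as RLE factors (median ratios, in place of the trimmed means of TMM) raised the median log2 ratio of all genes by 0.21 in C1.1 and 0.12 in C166. DESeq2 called 5933 genes higher and 3990 lower in C1.1, where edgeR called 4772 and 4836. With RLE factors the members called lower numbered 3 cytosolic ones in C1.1 and 1 in C166, while all those called higher in either class kept their calls under every scaling. With 1 library left out, however, Mars2 and Tars2 lost the call in C1.1 in 4 of 6 cases each.

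Eprs had the highest ratio among the cytosolic members, at 716, 713 and 776 CPM in the nucleus against 248, 216 and 246 CPM in the cytoplasm of C1.1 and 617, 655 and 708 against 225, 235 and 254 CPM in C166 (CPM scaled within each fraction). Vars was at 222, 215 and 249 CPM in the nucleus against 79.2, 91.1 and 83.1 CPM in the cytoplasm of C1.1 and at 219.6, 233 and 213 against 90.02, 87.99 and 103 CPM in C166. Their log2 ratios, nucleus over cytoplasm, were 1.51 ± 0.09 and 1.31 ± 0.12 in C1.1 and 1.37 ± 0.09 and 1.14 ± 0.12 in C166. Lars (1.15 in C1.1 and 1.297 in C166), Qars (1.25 and 0.88) and Mars (0.82 and 0.78) followed, and with Aars, Cars and Tars these were higher in the nucleus in both lines. Iars was called higher in the nucleus in C166 (0.52), with a ratio of -0.09 in C1.1.

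Dars and Wars had the lowest ratios over both lines. Dars was at 142, 146 and 143 CPM in the nucleus against 201, 187 and 179 CPM in the cytoplasm of C1.1 and at 182, 169.8 and 183 against 252, 225 and 220.3 CPM in C166, with log2 ratios of -0.52 ± 0.09 and -0.48 ± 0.09. It was the only cytosolic member called lower in C166 under every scaling. Wars was at 46.5, 43.3 and 35.8 CPM against 53.3, 67.03 and 58.7 CPM in C1.1 and at 59.2, 56.6 and 52.9 against 49.002, 68.1 and 68.5 CPM in C166, with -0.64 ± 0.12 (adjusted p = 2.72e-05) and -0.24 ± 0.12 (adjusted p = 0.0842). Without the C166 library that stood apart the ratios in C166 of Wars (-0.40, adjusted p = 0.0036) and Hars (-0.31, adjusted p = 0.00995) were called lower. The calls of Farsb, Gars and Sars as lower in the nucleus did not hold under RLE factors in either line, nor did that of Kars in C166 or those of Hars and Nars in C1.1.

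Among the mitochondrial members Aars2 was at 21.4, 25.1 and 23.4 CPM in the nucleus against 7.16, 8.83 and 9.72 CPM in the cytoplasm of C1.1 and at 23.3, 24.4 and 21.5 against 7.09, 5.92 and 8.83 CPM in C166. Iars2 was at 143, 143 and 159.6 CPM against 40.5, 45.3 and 44.04 CPM in C1.1 and at 113, 118 and 119 against 39.3, 46.3 and 42.3 CPM in C166. The fractions were far apart for both, with log2 ratios of 1.31 ± 0.23 and 1.65 ± 0.12 in C1.1 and 1.56 ± 0.24 and 1.35 ± 0.12 in C166. Vars2, Lars2, Hars2, Yars2, Mars2 and Tars2 were also called higher in the nucleus of both lines. Cars2 alone was lower there, at 13.99, 16.04 and 17.6 CPM against 21.6, 21.3 and 23.8 CPM in C1.1 and 21.6, 18.7 and 19.05 against 33.8, 25.3 and 20.7 CPM in C166, with log2 ratios of -0.61 ± 0.15 and -0.53 ± 0.15. In C166 that value was -0.34 (adjusted p = 0.047) without the library that stood apart, and its call was lost when only the libraries compared were fitted (adjusted p = 0.112). Wars2 had -0.38 ± 0.18 and 0.08 ± 0.18 and was not called in either line, with -0.15 in C166 without that library.

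**Figure D5:**
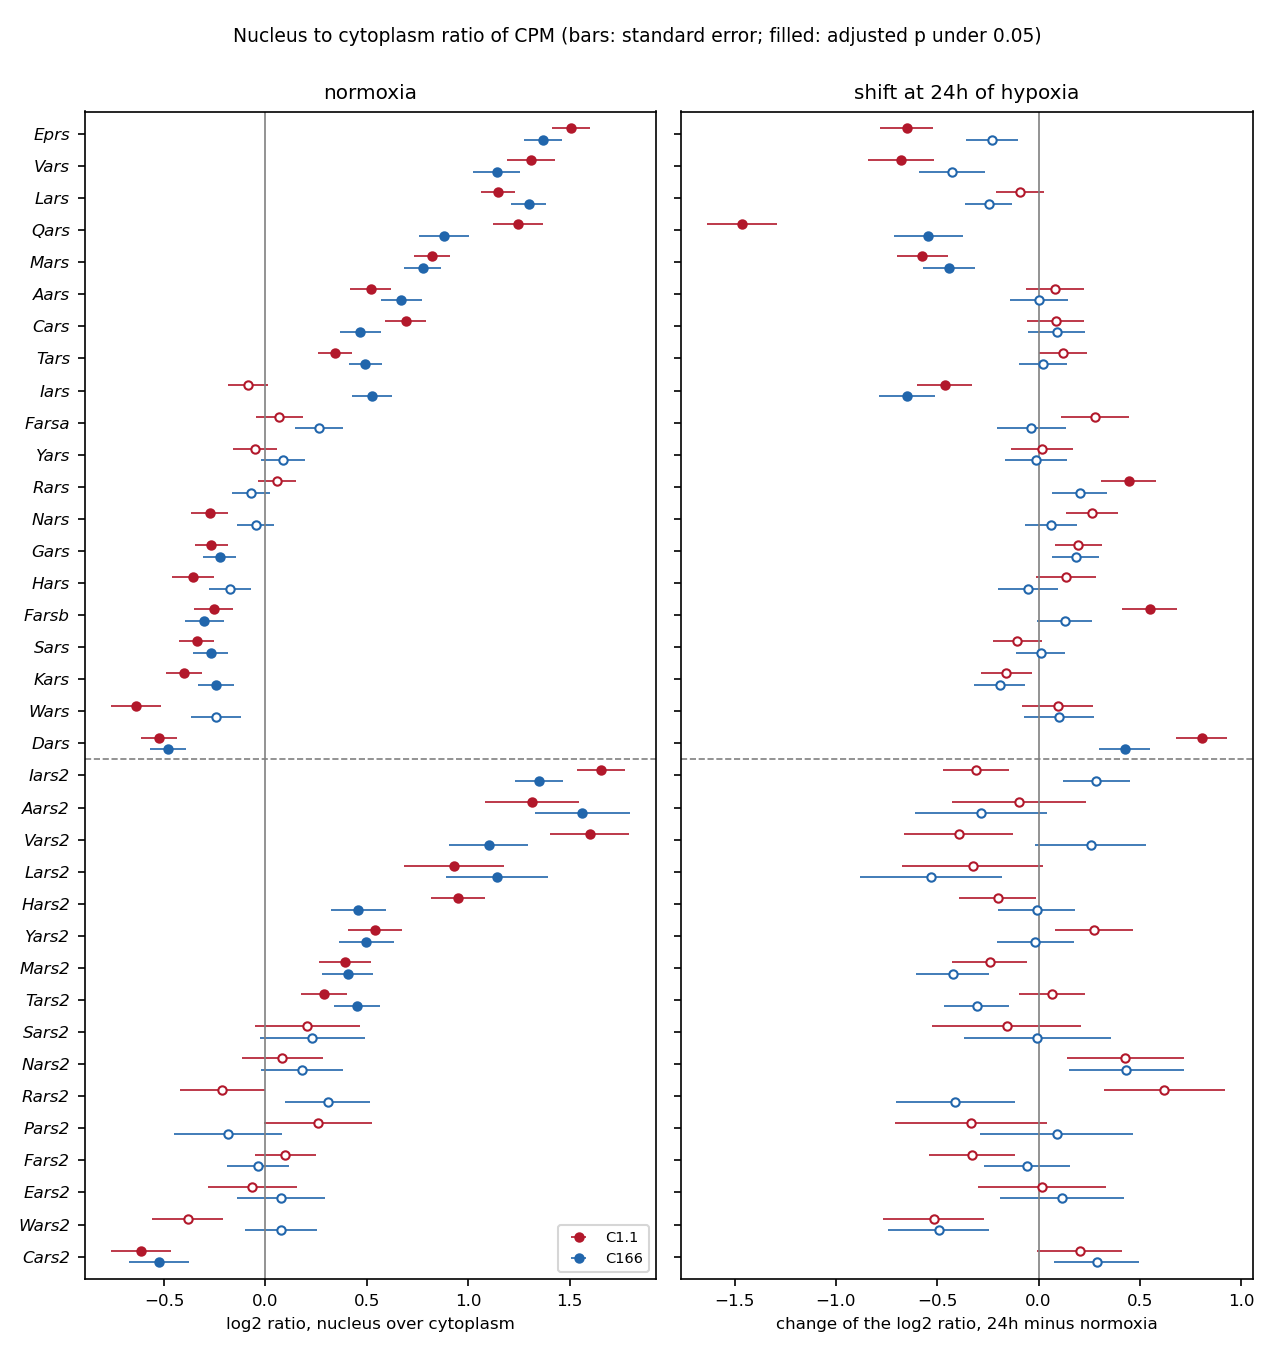
Log2 ratio of nuclear over cytoplasmic CPM of each synthetase RNA in normoxia (left) and the change of that ratio at 24h of hypoxia (right), with standard errors, in C1.1 (red) and C166 (blue). Filled points passed an adjusted p of 0.05. Eprs, Vars, Lars and Qars lie highest among the cytosolic and Iars2, Aars2 and Vars2 among the mitochondrial members, and Qars moved furthest at 24h, by -1.46 in C1.1.

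At 24h the ratio shifted in 8 cytosolic members of C1.1, 3 toward the nucleus and 5 toward the cytoplasm, and in 4 of C166, 1 and 3. No mitochondrial member shifted in either line. Over all genes 6.76% shifted toward the nucleus and 4.29% toward the cytoplasm in C1.1, and 3.25% and 5.17% in C166. Qars, singled out after its values were seen, moved most in C1.1. It stood at 99.9, 96.04 and 93.8 CPM in C1.1 nucleus at 24h against 127, 129.7 and 134 CPM in normoxia, and at 95.3, 100.2 and 114 against 51.97, 48.1 and 50.3 CPM in C1.1 cytoplasm. The groups were apart in both fractions and in opposite directions, and the shift of the log2 ratio was -1.46 ± 0.17 with an adjusted p of 6.42e-07. In C166, with 75.9, 93.5 and 90.1 CPM at 24h against 91.2, 94.5 and 96.9 CPM in the nucleus and 77.8, 50.2 and 60.3 against 54.6, 44.9 and 43.6 CPM in the cytoplasm, the shift was -0.54 ± 0.17 (adjusted p = 0.0423) and was lost under RLE and upper-quartile factors and without each of 10 of the 12 libraries in turn.

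Iars and Mars shifted toward the cytoplasm in both lines, Iars by -0.46 in C1.1 and -0.65 in C166 and Mars by -0.57 and -0.44. Eprs (-0.65) and Vars (-0.68) did so in C1.1, while their values in C166 of -0.23 and -0.43 were not called. Dars moved the other way in both lines, by 0.80 in C1.1 and 0.43 in C166, and Farsb and Rars in C1.1 (0.55 and 0.44). In C166 the call of Dars was lost without the normoxic library that stood apart (0.38, adjusted p = 0.0788), and none of the 4 calls held when only the libraries compared were fitted. Leaving out 1 of 12 libraries ended the call of Dars in 7 cases and of Mars in 8 in C166, and in C1.1 that of Iars in 9, Vars in 4, Rars in 3 and Mars in 1. The nuclear RNAs Malat1 and Neat1 rose at 24h in the cytoplasm too, by 0.75 and 1.18 in C1.1 and 1.02 and 1.49 in C166, and had -0.01 and -0.29 in C1.1 nucleus and -0.16 and -0.27 in C166 nucleus. Kcnq1ot1, another RNA of the nuclear list, had -0.81 in C1.1 and 0.11 in C166 cytoplasm, and -0.71 and 0.07 in their nuclei, called lower in both fractions of C1.1. Their part in the shifts of the synthetases was not tested.

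In the lists chosen for the other genes of the pathway, of the 3 scaffold genes of the multisynthetase complex, Eef1e1 fell in the cytoplasm at 24h by 0.94 in C1.1 and 0.87 in C166, Aimp2 fell in C1.1 (-0.51), and Aimp1 was at 0.15 and -0.01 without a call. Of the 4 mitochondrial charging helpers, Qrsl1, a subunit of the amidotransferase that makes mitochondrial Gln-tRNA, fell by 0.67 in C1.1 and 0.83 in C166, Gatc fell in C1.1 (-0.79), and Gatb and Mtfmt were not called in the cytoplasm. Among 4 mitochondrial elongation factors, Gfm1 fell in the cytoplasm by 0.71 and 0.52 and Tufm in C1.1 (-0.63), and all 4 fell in C1.1 nucleus. Over all genes 20.5% were lower in C1.1 nucleus. In the cytoplasm 18% were higher and 18.1% lower in C1.1, and 18.2% and 17.5% in C166. The counts of these short lists are to be read beside those shares. Of 7 cytosolic elongation factor genes 4 rose and 2 fell in C1.1 cytoplasm and 3 and 2 in C166 cytoplasm, with Eef2, the translocation factor, at 1.29 and 0.92, Eef1a1, which delivers charged tRNAs to the ribosome, at 0.93 and 0.67, and Eif5a and Eef1d falling in C1.1 (-0.85 and -0.65). Of 6 genes of tRNA end processing and export, 3 fell in each line: Trnt1, which adds the CCA end (-0.80 in C1.1), Elac2, which cuts off the trailer (-0.98), and Ssb, the La protein that binds new ends (-0.85), while Xpot, the tRNA export receptor, rose in C166 (0.33). In normoxic C166 cytoplasm Qrsl1 spread widely (20.2 ± 9.62 CPM, SD), as did Xpot (153 ± 32.9 CPM), whose libraries overlapped with those at 24h. Values of these lists without the C166 library that stood apart are not given.

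Atf4 itself rose in both lines, by 0.44 in C1.1 cytoplasm and 0.39 in C166 cytoplasm. Of 25 measured ATF4 target genes other than synthetases, 8 rose and 4 fell in C1.1 cytoplasm and 13 rose and 1 fell in C166 cytoplasm, with medians of 0.10 and 0.59. Of all genes, 18% were higher and 18.1% lower in C1.1 cytoplasm and 18.2% and 17.5% in C166 cytoplasm. Eif4ebp1, a repressor of translation, Aldh18a1 of proline synthesis and Nupr1 were among those that rose, by 1.26, 1.14 and 1.48 in C1.1 and 1.605, 0.78 and 2.42 in C166. The difference of the responses was called lower in C1.1 for 5 of them in the cytoplasm, among them, picked after their values were seen, Asns, the asparagine synthetase (-0.56), Psat1 and Phgdh of serine synthesis (-0.58 and -0.56) and Shmt2 of mitochondrial one-carbon metabolism (-0.89), beside 0.94% of all genes. In the nucleus it was called lower for 4 and higher for 1, beside 1.87% and 2.89%. Aars had -0.51 in the cytoplasm without a call (adjusted p = 0.0884), and -0.42 without the C166 library that stood apart (adjusted p = 0.127). The other values of C166 cytoplasm in this paragraph, and the cytoplasmic differences, include that library and are not given without it. With 1 library left out, 184 to 503 genes were called in the cytoplasmic difference.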

How the data were processed

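RNA of 36 libraries in 12 groups of 3 was analysed. The authors aligned reads with TopHat2 2.0.11 and Bowtie2 2.2.2 per the labels' processing notes, and deposited raw counts per gene in 1 table; the strand setting of the counting is not given in the sources used here. The members and lists were chosen with earlier results of these data known. Counts were fitted with edgeR 4.0.16 in R 4.3.3 (filterByExpr, TMM, quasi-likelihood test, Benjamini-Hochberg over all genes), in 18 libraries per fraction, or all 36 for ratios of nucleus to cytoplasm. CPM was TMM-scaled within a fraction. Every member is named. Values of every library are given for called members with the smallest p at 24h (up to 4 cytosolic and 3 mitochondrial) and between lines (up to 2 of each), members called in a difference of responses and the 2 highest and 2 lowest ratios of each class. Of other lists, up to 4 with the smallest p at 24h are named, beside Ddit3 and genes marked as picked after their values were seen. Alternatives were RLE and upper-quartile factors, no count filter, DESeq2 1.42.0, fits of only the libraries compared, a replicate block and each library left out. Squared differences between replicates were, as a mean over genes, 3.36 to 57.7 times the variance of counting alone. Sfmbt2 counts lie outside the deletion and do not check it. The sequence of a further promoter match is not reported here. The statistics were tested on simulated data.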

Additional observations from a re-analysis of the deposited data

Results flagged for a closer look

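The nuclear response to 24h of hypoxia differed between C1.1 and C166 by the test of the difference itself for 3 cytosolic synthetases. The log2 difference, C1.1 minus C166, was -0.46 ± 0.12 for Aars (adjusted p = 0.0205), -0.63 ± 0.18 for Vars (adjusted p = 0.0377) and -0.61 ± 0.16 for Wars (adjusted p = 0.0219), from the edgeR fit of 18 nuclear libraries. Over all alternatives the adjusted p ran from 0.00244 to 0.0847 for Aars, 0.000747 to 0.124 for Vars and 0.00599 to 0.0851 for Wars. Leaving out 1 of the 12 libraries concerned ended the call of Aars in 5 cases, of Vars in 10 and of Wars in 6. Among all genes 1.87% were called lower and 2.89% higher in this test.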

How the results depend on the processing

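Of 164 called values of the members, 128 kept their call under each alternative that used all libraries, 36 lost it under at least 1, 46 lost it when at least 1 library was left out, and 0 changed direction. The values below are counts that moved by over 1.5 times. Where fewer libraries were fitted the fit itself has less to estimate the spread from, and for the other settings the cause was not tested. The log2 fold changes of the mitochondrial members at 24h had a median standard error of 0.21 in the cytoplasm and 0.14 in the nucleus of each line, against 0.10 and 0.08 for the cytosolic ones.

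Without a filter on low counts, calls at 2h in the cytoplasm numbered 648 in C1.1 (292 with the filter) and 560 in C166 (201 with it), and those called in the difference of the 24h responses numbered 710 in the cytoplasm (350 with it). In that difference 1 cytosolic member was then higher and 2 lower in the cytoplasm (0 and 0 with the filter), and 1 cytosolic and 1 mitochondrial member were higher in the nucleus (0 and 0). The nucleus to cytoplasm ratio was lower for 5 cytosolic members in C1.1 (8 with the filter) and 1 in C166 (5), and 0 cytosolic members of C166 shifted toward the nucleus at 24h (1 with it).

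DESeq2 called 784 genes at 2h in C1.1 cytoplasm, 490 in C166 cytoplasm, 795 in C1.1 nucleus (517 by edgeR) and 555 in C166 nucleus (362 by edgeR). It called 834 genes in the difference of the cytoplasmic responses, with 1 cytosolic member higher and 3 lower, and in the nucleus 1 cytosolic and 1 mitochondrial member higher. It also called 1 cytosolic member lower at 2h in C1.1 nucleus, and lower ratios for 3 cytosolic members in C1.1 and 1 in C166. RLE factors gave lower ratios for 3 cytosolic members in C1.1 and 1 in C166. Upper-quartile factors gave 3 and 3, with 1 cytosolic member lower at 2h in C1.1 nucleus and 1 shifted toward the cytoplasm in C166 (3 with TMM).

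When the fit held just the libraries of a comparison, calls at 2h numbered 1385 in C1.1 cytoplasm, 26 in C166 cytoplasm and 699 in C166 nucleus. At 24h in C166 cytoplasm there were 3132 (5362 in the larger fit), with 3 cytosolic (6) and 1 mitochondrial (3) members lower, and in C1.1 cytoplasm 2 mitochondrial members were higher (1). Between the lines in normoxic cytoplasm 3306 genes were called (5326). The difference of the responses had 144 in the cytoplasm, and 1 cytosolic and 1 mitochondrial member higher in the nucleus. Lower ratios were called for 2 mitochondrial members in C1.1 (1), and for 1 cytosolic (5) and 0 mitochondrial (1) members in C166. The 24h shift had 2934 genes (1843) and 1 mitochondrial member toward the nucleus (0) in C1.1, and 330 genes (1405) with 0 cytosolic members either way (1 and 3) in C166.

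With 1 library left out, the genes called at 2h ranged from 80 to 262 in C1.1 cytoplasm, 110 to 339 in C166 cytoplasm, 228 to 698 in C1.1 nucleus and 193 to 292 in C166 nucleus, with 0 to 1 cytosolic members lower in C1.1 nucleus. The difference of the responses ranged from 184 to 503 genes in the cytoplasm, with 0 to 1 cytosolic members higher and 0 to 2 lower. In the nucleus it ranged from 416 to 1181 genes (748 with all libraries), with 0 to 2 cytosolic members higher and 0 to 4 lower and 0 to 1 mitochondrial members either way. At 24h the mitochondrial members higher ranged from 0 to 1 in C1.1 cytoplasm, C166 cytoplasm and C1.1 nucleus and 0 to 2 in C166 nucleus, and the cytosolic ones higher in C1.1 nucleus from 2 to 5. Between the lines 2 to 4 mitochondrial members were lower in normoxic cytoplasm. Lower ratios were called for 5 to 8 cytosolic and 1 to 2 mitochondrial members in C1.1 and 2 to 7 cytosolic ones in C166. The 24h shift covered 2 to 5 cytosolic members toward the nucleus and 2 to 5 toward the cytoplasm in C1.1, and 661 to 2140 genes with 0 to 1 and 1 to 3 cytosolic members in C166.

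With the replicate number as a replicate block, 572 of 576 values of the members kept their side of the threshold, 2 lost a call and 2 gained one. The numbers gave no clear sign of pairing, since correlations of same-numbered deviations ran from -0.05 to 0.09 and in 0 of 12 comparisons were all over 0.1. The block is a single replicate factor shared by all groups of a fit. It cannot fit a nucleus and a cytoplasm split from the same cells, and the ratios were tested without such pairing. In 2 of the 12, every library correlated best with its own number, which is a hint from the data and not part of the design. These were 24h hypoxia against normoxia in C1.1 cytoplasm and nucleus against cytoplasm in C1.1 normoxia.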
